A study of Homo sapiens with 4 samples.

Results

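Chromosome 19 is the most gene-dense human chromosome, and here it was the chromosome with the most open regions per unit of length in wild-type (WT) HEK293T cells. The regions described are all peaks on chromosome 19 in the list of open regions that the authors called from ATAC-seq, an assay of chromatin accessibility that sequences DNA where Tn5, an enzyme that inserts adapters, could reach it. They were chosen by chromosome alone and numbered 2209 of 50883 peaks in the list. HEK293T is a transformed, aneuploid human embryonic kidney line. The series holds 2 ATAC-seq libraries of Wild-type cells and 2 of cells with a MORC2 knock-out (KO), both in the HEK293T line, with no further treatment named. The KO libraries came from uncloned pools, each edited with 1 guide RNA of its own, so guide and replicate cannot be separated. The peaks were called once over both WT libraries, so a peak has no replicate values, and comparisons between peaks are descriptions that carry the spread among peaks only. A second table gives fragment counts at the promoters of genes for all 4 libraries, and 1791 of its 28775 rows were genes of chromosome 19.

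Chromosome 19 carries housekeeping and ribosomal protein genes, several families of immune and secreted proteins, and most of the tandem clusters of KRAB zinc finger genes. KRAB zinc finger proteins bind DNA and recruit silencing factors to it, chiefly at transposable elements, and the zinc finger clusters are themselves known to carry the heterochromatin mark H3K9me3 over gene bodies while their promoters can stay open. MORC2 is an ATPase that compacts chromatin and works with the HUSH silencing complex, and clustered zinc finger genes are among the loci that HUSH is known to repress.

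The stretches shown here, for promoters at both ends of the range of openness, are the 150 bases just before the start of each gene, from the RefSeq promoter table on GRCh38.p14, 5′ to 3′ on the gene's own strand, with each CpG in capitals. ZNF254 (chr19:24087037-24087186, plus strand) and ZNF730 (chr19:23116875-23117024, plus strand) were the most and the least open promoters of the same zinc finger cluster. TSEN34 (chr19:54190194-54190343, plus strand) had the highest WT count on the chromosome. ZNF548 (chr19:57389704-57389853, plus strand) and CD33 (chr19:51224930-51225079, plus strand) are shown because they were higher and lower in KO.
ZNF254: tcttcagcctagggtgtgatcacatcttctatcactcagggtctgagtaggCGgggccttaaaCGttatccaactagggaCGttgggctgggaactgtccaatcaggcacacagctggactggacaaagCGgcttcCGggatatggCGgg
ZNF730: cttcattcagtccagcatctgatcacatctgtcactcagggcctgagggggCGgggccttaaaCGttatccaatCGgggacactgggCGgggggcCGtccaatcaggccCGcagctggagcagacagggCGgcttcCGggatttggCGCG
TSEN34: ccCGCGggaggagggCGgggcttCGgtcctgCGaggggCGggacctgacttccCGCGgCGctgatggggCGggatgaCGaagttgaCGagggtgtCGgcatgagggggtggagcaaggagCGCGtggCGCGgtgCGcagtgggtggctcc
ZNF548: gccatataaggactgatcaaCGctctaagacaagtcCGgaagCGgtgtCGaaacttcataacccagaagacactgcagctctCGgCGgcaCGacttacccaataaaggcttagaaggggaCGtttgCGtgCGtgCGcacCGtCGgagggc
CD33: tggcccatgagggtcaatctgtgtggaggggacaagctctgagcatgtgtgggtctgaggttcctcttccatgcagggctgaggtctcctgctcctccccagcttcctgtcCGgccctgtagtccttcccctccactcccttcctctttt

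The ZNF254 and ZNF730 stretches were 78.4% identical, with 120 of 153 alignment columns the same, against 50.3% for ZNF254 and TSEN34 and 45.9% for ZNF254 and CD33. Even so, the ZNF254 promoter held 282 and 273 fragments in the 2 WT libraries and the ZNF730 promoter 12 and 13. In normalised counts scaled to a common library size (CPM) that is 29.8 ± 0.672 (SD, n = 2) against 1.34 ± 0.137, a ratio of 22.2. The less open of the pair held more CpGs in the printed bases, 10 against 6, while TSEN34 held 18, ZNF548 13 and CD33 1.

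Chromosome 19 had 35.8 peaks per Mb up to its last peak end at 61.7 Mb, the highest of 23 chromosomes. Chromosome 17 followed with 26.8, then chromosome 1 with 21.5 and chromosome 22 with 20.7, whereas chromosome 18 had 11.7. Peaks covered 2.74% of chromosome 19 and 2.08% of chromosome 17, the next highest. By number alone chromosome 19 was 13th of 23. A typical stretch between neighbouring peaks was 12.7 kb (median), the shortest of any chromosome. Density put chromosome 19 first under each of 3 other peak lists, those limited to a −log10 q of at least 5 or 10 and that with peaks under 500 bp apart joined.

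Peaks of chromosome 19 were also broad. Their median width was 676 bp (95% interval of the median 647 to 705), the widest median of 23 chromosomes, against 528 bp (524 to 533) elsewhere. The gain lay in fewer narrow peaks: 8.19% were under 250 bp, compared with 12.2% elsewhere. Peaks over 1000 bp made up 28.0% (Wilson 95% interval 26.1 to 29.9) against 24.9%, but those over 1500 bp made up 6.52% against 9.55%. The widest peaks were chr19:53883284-53886189 (CHM13, as for all peaks), with 2906 bp, followed by chr19:48294833-48297696 with 2864 bp, chr19:44129039-44131799 with 2761 bp, chr19:1412925-1415592 with 2668 bp and chr19:2450421-2453062 with 2642 bp. Their fold enrichment, how far the signal at a summit exceeds the background around it, lay between 2.77 and 5.76, below the chromosome's median. Fold enrichment rose with width from a median of 3.10 under 250 bp to 8.82 between 1000 and 1500 bp, then was 6.73 above that. The same order held elsewhere in the genome, at 3.21, 9.73 and 8.27.

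Strength, unlike density and width, was ordinary over the chromosome as a whole. The median fold enrichment was 6.15 (95% interval 5.94 to 6.33), 7th of 23 chromosomes, against 5.89 (5.84 to 5.95) elsewhere. Peaks over 10-fold numbered 394, or 17.8% (Wilson 95% interval 16.3 to 19.5), against 17.1% elsewhere. The strongest was chr19:12568805-12569842, 1038 bp wide at 19.9-fold, only 36th in the genome. The next were chr19:60624111-60624776 and chr19:46935873-46936965, both 17.8-fold, chr19:47179190-47179783 at 17.7-fold, chr19:21497343-21498288 and chr19:21535323-21536111, both 17.1-fold, and chr19:53696687-53697386 at 16.7-fold. The list of 10 closed with chr19:60486524-60487438 at 16.6-fold, chr19:60416576-60417731 at 16.1-fold and chr19:60596694-60597438 at 16.1-fold. Of these 10 peaks, 4 therefore sat within a single 1 Mb bin near the end of the chromosome and another pair in a bin that held 8 peaks in all.

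Along the chromosome the peaks formed dense blocks on each side of a long desert. The longest interval without a peak ran from 24181904 to 30320885, or 6.14 Mb. Pairs of mapping quality under 30 were discarded by the authors, and the part of this in the peak-free intervals was not tested. The place of the centromere and of repeats on CHM13 was not analysed, so a lack of peaks here is not a measure of closed chromatin. On the side of lower coordinates lay 1069 peaks at 44.2 per Mb with a median of 5.70-fold. The other side held 1140 peaks at 36.4 per Mb with a median of 6.57-fold, and its share over 10-fold was 21.1% against 14.3%. The next longest peak-free intervals were 30322384-31742997 (1.42 Mb), 19914670-21158752 (1.24 Mb), 21906395-22772557 (0.866 Mb) and 33875950-34560325 (0.684 Mb), so 4 of the 5 longest, the desert included, lay between 19 and 32 Mb.

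**Figure D1:**
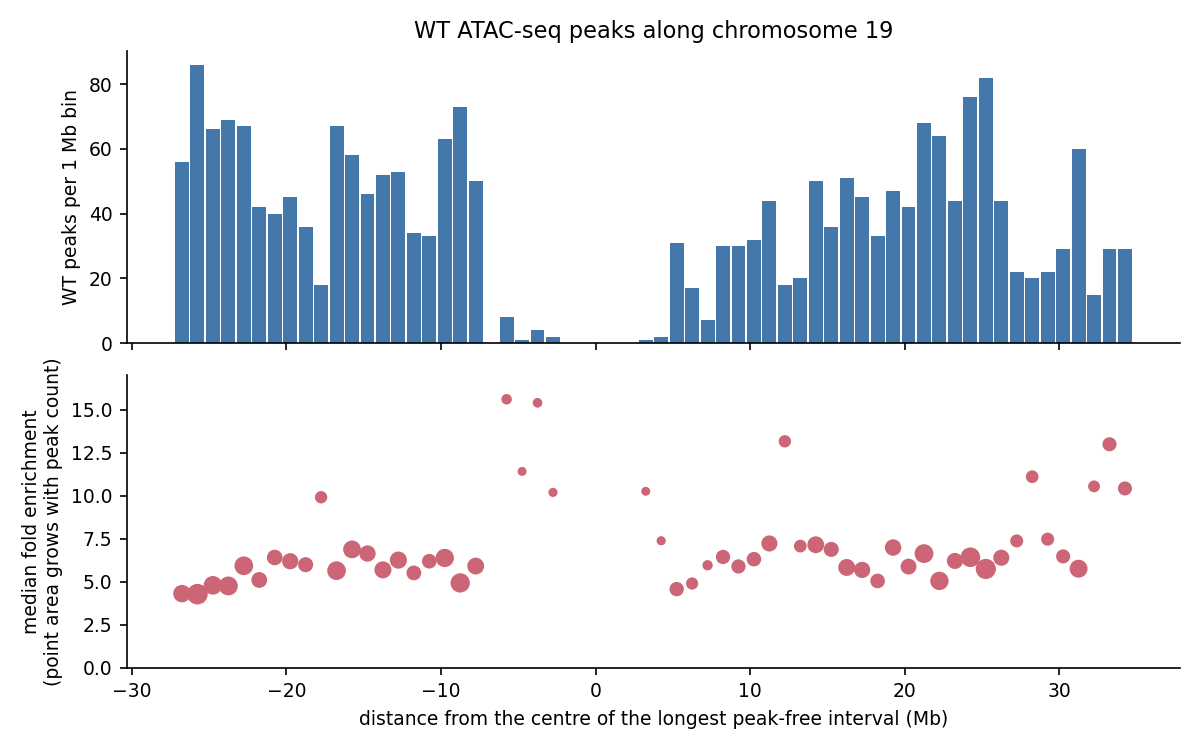
WT peaks per 1 Mb bin of chromosome 19 (bars, upper panel) and the median fold enrichment of the peaks in each bin (points, lower panel), against the distance in Mb from the centre of the longest peak-free interval. Bins with 1 to 8 peaks beside the empty stretch have medians up to 15.6-fold, whereas the fullest bin, with 86 peaks, has a median of 4.28-fold.

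Of 62 bins of 1 Mb, 6 held no peak and 19 held 50 or more, with a median of 35 peaks per bin against 13 elsewhere. The fullest bin, from 1 to 2 Mb, held 86 peaks and was second in the genome, where the maximum was 94. It was followed by the bins from 52 to 53 Mb with 82 peaks, 51 to 52 Mb with 76, 18 to 19 Mb with 73 and 3 to 4 Mb with 69. Chromosome 19 supplied 17 of the genome's 100 fullest bins, more than chromosome 16 with 11 or chromosome 17 with 10. The 6 empty bins were the 1 from 20 to 21 Mb and the 5 from 25 to 30 Mb.

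Crowded bins held the weaker peaks and sparse bins the stronger. In the 15 bins with 1 to 25 peaks the median was 9.73-fold (95% interval 7.95 to 10.7), and 83 of 177 peaks, or 46.9% (Wilson 95% interval 39.7 to 54.2), passed 10-fold. In the 22 bins with 26 to 49 peaks the median was 6.48-fold and the share 20.2%. The 19 bins with 50 or more peaks had a median of 5.63-fold (5.42 to 5.88) and a share of 11.97% (10.3 to 13.9). Other chromosomes showed the same order over a smaller range, at 6.17-fold, 5.64-fold and 5.52-fold. Sparse bins of chromosome 19 thus had a higher median than sparse bins elsewhere, whereas the medians of the fullest bins were close. The intervals cover the spread over peaks of 1 joint call, which are not replicates, so the difference was described and not tested.

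**Figure D2:**
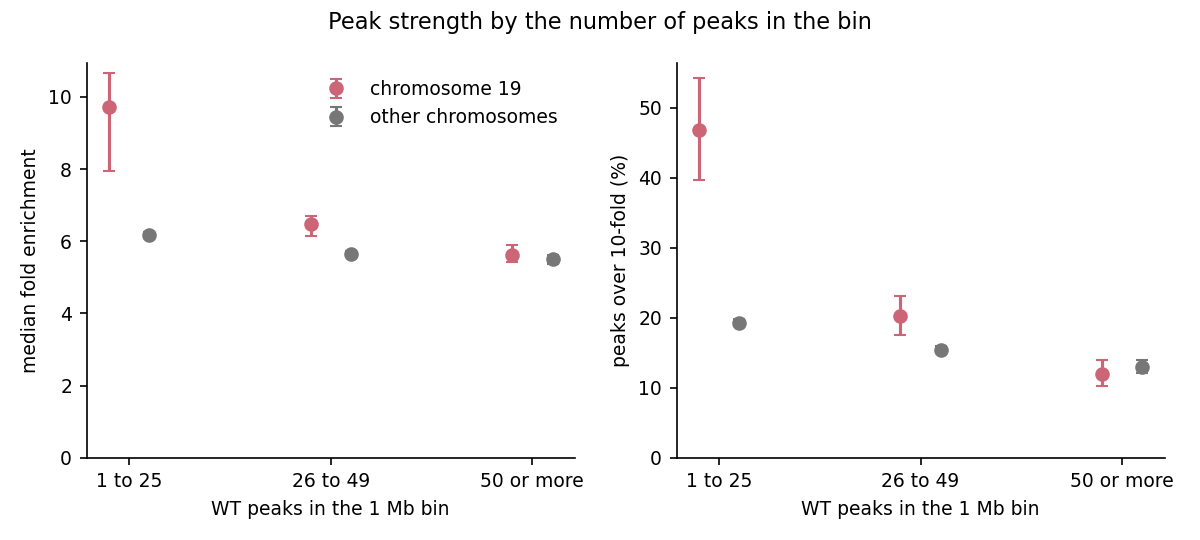
Median fold enrichment (left) and share of peaks over 10-fold (right) for WT peaks in 1 Mb bins with 1 to 25, 26 to 49, and 50 or more peaks, on chromosome 19 and on all other chromosomes. Points are medians or percentages and bars 95% intervals over peaks. In the sparse bins chromosome 19 is at 9.73-fold against 6.17-fold elsewhere, and in the fullest at 5.63-fold against 5.52-fold.

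As a description over the 51 bins with at least 5 peaks, Spearman's rho between the number of peaks and their median fold enrichment was −0.51, the most negative of 23 chromosomes. Chromosome 5 came next with −0.35 and chromosome 2 had 0.01. The bins share both libraries and one peak call. The difference between the medians of sparse and full bins, 4.10, was 3.95 with weak peaks (−log10 q under 5) left out of the medians, but 2.40 with bins counted anew without those peaks and 1.64 in bins of 2 Mb. Distance to the nearest peak gave the same picture on a finer scale. Peaks with a neighbour within 5 kb had a median of 4.66-fold and 5.53% passed 10-fold, against 9.05-fold and 42.5% at 20 to 50 kb and 9.01-fold and 46.3% beyond 50 kb. Elsewhere the medians were 4.52-fold, 6.68-fold and 6.37-fold for these classes, so the medians of crowded peaks were close and those of isolated peaks were apart, a difference that was described and not tested. Since fold enrichment is taken over the local background, neighbouring peaks can enter its denominator, and the part of this in the values was not tested.

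A median above 9-fold was reached in 11 bins, each with at most 30 peaks. In these, 101 of 145 peaks (69.7%) passed 10-fold, a share largely set by choosing the bins on their median. These bins lay in a few places. The bin from 9 to 10 Mb held 18 peaks with a median of 9.92-fold, the bin from 39 to 40 Mb 18 peaks at 13.2-fold with 16 over 10-fold, and the bin from 55 to 56 Mb 20 peaks at 11.1-fold with 13 over 10-fold. Sparseness alone did not go with strong peaks everywhere: the bins from 33 to 34 Mb and 34 to 35 Mb held 17 and 7 peaks with medians of 4.90-fold and 5.96-fold and 1 peak over 10-fold between them. Bins of at least 50 peaks had medians from 4.28-fold to 7.16-fold.

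Between 20 Mb and the desert lay 15 peaks, and 14 of them exceeded 11-fold. The first 8, from chr19:21158753-21160065 to chr19:21905363-21906394, spanned 0.748 Mb at 12.2-fold to 17.1-fold and widths of 674 to 1313 bp, with empty intervals of 1.24 Mb before and 0.866 Mb after them. A lone peak followed at chr19:22772558-22773368 (11.4-fold). Then came chr19:23384768-23385469 (15.3-fold), chr19:23408407-23409414 (16.0-fold), chr19:23532863-23533537 (14.5-fold) and chr19:23825960-23826928 (15.5-fold). The exception, chr19:24060270-24060717, was 448 bp wide at 6.57-fold, and the last before the desert, chr19:24180715-24181903, reached 13.8-fold. In this stretch the open regions were few, far apart and almost uniformly strong. Peaks were not assigned to genes here, because gene positions on CHM13 were not analysed.

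The chromosome's ends were opposites. The first 2 Mb held 142 peaks, or 71 per Mb, second among the 38 chromosome ends with at least 20 peaks, but their median of 4.28-fold was 35th and 2 peaks (1.41%) passed 10-fold. The last 2 Mb held 59 peaks, or 29.5 per Mb, 23rd in density, and their median of 11.1-fold was the highest of the 38 ends. There, 41 peaks (69.5%) passed 10-fold. The end of chromosome 1 was next with 9.38-fold over 23 peaks. The interior of chromosome 19 lay at 34.8 per Mb, 6.20-fold and 17.5%. Median widths were 634 bp in the first 2 Mb, 868 bp in the last and 670 bp between. Joined, both ends had 1.44 times the density of the interior, a ratio that joins opposite values. With 1 Mb taken as the end the last part had a median of 10.5-fold and with 5 Mb 8.12-fold. The first peak, chr19:218206-218893, was among the 2 strong ones at its end with 12.3-fold, and the last, chr19:61672811-61673673, reached 5.07-fold.

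**Figure D3:**
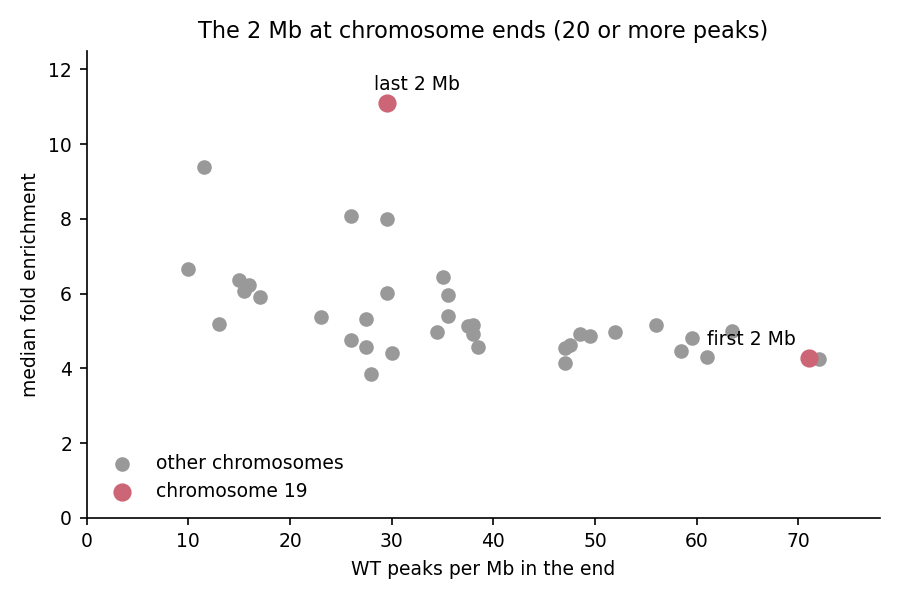
Peaks per Mb and median fold enrichment in the 2 Mb at each chromosome end with at least 20 WT peaks (points). The first 2 Mb of chromosome 19 lie at 71 peaks per Mb and 4.28-fold, and the last 2 Mb at 29.5 peaks per Mb and 11.1-fold, the highest median of the 38 ends.

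The promoter counts give the same cells library by library and by gene. Totals ran from 9435801 to 15152636 fragments, of which 20.6% to 35.1% were mitochondrial. Chromosome 19 held 5.20% and 5.67% of the nuclear count in the WT libraries and 5.07% and 4.90% in the KO libraries. Both KO shares were below both WT shares, but the gap between the WT libraries was wider than that between the nearest WT and KO libraries. As a check of the line, the promoter of the embryonic kidney gene SALL1 was high in WT (58.7 CPM), whereas PAX2, EYA1 and PAX8 lay at 4.81 to 7.16 CPM. Of 10 defining genes of other cell types, those of blood, T cells and liver, PTPRC, CD3E and ALB, lay at 1.71 to 2.36 CPM, and the highest was APOA2 at 19.1 CPM. The promoter of MORC2, on another chromosome, had 25.7 and 29.6 CPM in WT and 37.0 and 37.5 in KO, a log2 difference of 0.43 ± 0.09 (SE, adjusted p = 0.000279 by edgeR). The call was lost without KO replicate 2 (adjusted p = 0.0837 in edgeR) and with total-count scaling (adjusted p = 0.240 in edgeR), and DESeq2 gave no adjusted p. A promoter count does not test whether the edited gene still makes protein.

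A row counts fragments in the promoter of 1 gene, which the study describes elsewhere as a window of 2 kb. Whether the table used that window is not stated, so comparisons of level between genes hold only if the windows are of like length. The median promoter of chromosome 19 held 15.1 CPM in WT, 15th of 23 chromosomes, so a crowd of peaks did not go with a high typical promoter. The highest mean was that of TSEN34, a subunit of the tRNA splicing endonuclease, with 101 and 121 CPM in the WT libraries. MBOAT7 beside it had similar counts, at 98.4 and 117 CPM. In WT replicate 1 several promoters were above TSEN34, among them RRAS at 105 CPM, so its first place rests on WT replicate 2. The other 8 of the top 10 were RRAS and its neighbour SCAF1, SIX5, CIC, the neighbours VMAC and NDUFA11, KMT5C and TOMM40, with means between 101 and 110 CPM. Neighbouring rows of that kind are common: 374 rows of chromosome 19 had counts within 25% of those of the preceding row in all 4 libraries. Such rows may hold the same fragments, which was not tested, so they cannot be taken as independent. Among tested rows the 5 lowest means, 0.952 to 0.966 CPM, belonged to SNAR-F and the microRNA genes MIR520D, MIR519D, MIR518C and MIR517B. Whether a row of a microRNA gene lies at the start of its transcript was not analysed.

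Gene families of the chromosome fell into sets of high and of low counts. All 13 ribosomal protein genes were above 20 CPM, the lowest being RPS16 at 25.5 ± 3.97 (SD, n = 2). None of the tissue-restricted families reached that range as a group. Of 18 tested olfactory receptor genes all were under 5 CPM, at most 4.19 (OR1I1). So were the rows of all 37 tested microRNA genes of the placental cluster C19MC, at most 2.24 (MIR519A1). Where the transcripts of these microRNA genes start was not analysed, so their low rows are not read as closed promoters. The part of discarded pairs (mapping quality under 30) in these low counts was not tested. The LILR and KIR immune receptor genes had 15 of 18 under 5 CPM, the SIGLEC genes with CD33 and CD22 8 of 11, and the CYP2 and CYP4F genes of drug and lipid oxidation 12 of 16. The kallikreins, secreted serine proteases, lay somewhat higher, with a median of 6.08 CPM and KLK4 at 22.6, and the CEACAM and PSG genes had a median of 5.42 CPM with CEACAM5 highest at 16.0.

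Zinc finger genes ran from 1.19 to 60.3 CPM, against 0.952 to 110.9 CPM for all tested promoters of the chromosome. Of 270 on the chromosome, 241 lay in 13 clusters of 5 to 42 genes. A cluster was a run of at least 5 zinc finger genes with at most 3 other rows between neighbours. Genes were taken by symbol, which lets in pseudogene symbols such as ZNF56P, and 230 of the 241 were protein-coding. Whether a gene encodes a KRAB domain was not analysed. The cluster median was 13.4 and 14.6 CPM in the WT libraries, and that of the other chromosome 19 promoters 14.6 and 15.9, a ratio of 0.918 that differed little between libraries. Under 5 CPM lay 72 of 240 tested cluster promoters (30.0%) against 332 of 1507 others (22.03%), and over 20 CPM 30.8% against 42.6%. Among protein-coding genes the ratio of medians was 0.725, with 13.3% of the 1152 others under 5 CPM.

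Cluster medians ran from 2.98 to 36.3 CPM. Medians of few genes range more widely than pooled ones, so this range is not set against the difference from the rest of the chromosome. The small clusters ZNF554 to ZNF77, ZNF579 to ZNF580 and ZNF584 to ZNF446 had medians of 36.3, 35.9 and 33.6 CPM. ZNF627 to ZNF791 had 21.6, ZNF565 to ZNF573 17.8, ZNF264 to ZNF837 15.2, ZNF317 to ZNF846 13.0, ZNF283 to ZNF180 12.3, ZNF787 to ZNF835 11.9, ZNF845 to ZNF331 9.97 and ZNF577 to ZNF677 8.86 CPM. The lowest were ZNF492 to ZNF254 with 5.18 and ZNF101 to ZNF98 with 2.98 CPM. The difference between libraries was at most 2.93 CPM (SD of the 2 library medians), which does not cover the spread among the genes of a cluster. By this measure the top 3 clusters were not separated from each other. Nor were ZNF317 to ZNF846, ZNF283 to ZNF180 and ZNF787 to ZNF835, while the range from top to bottom exceeded it many times.

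Highest and lowest members show the spread inside each cluster. ZNF524 (60.3 CPM, with counts near those of FIZ1), ZNF837 (58.5, near those of ZNF497-AS1), ZNF146 (51.5), ZNF446 (49.6), ZNF564 (48.3), ZNF56P (46.8), ZNF787 (46.2) and ZNF555 (39.6) led their clusters. The other leaders, ZNF254, ZNF616, ZNF225, ZNF846 and ZNF765, lay between 17.5 and 29.8 CPM. At the bottom stood ZNF112 (1.19), ZNF730 (1.34), ZNF677 (1.51), ZSCAN5B (1.61), ZNF729 (1.62), ZNF788P (1.93), ZFP82 (2.47), ZNF177 (2.53), ZNF154 (2.57) and ZNF813 (2.96), at the levels of the olfactory receptor promoters. The remaining lowest members were ZNF556 (4.49), ZNF132 (5.52) and ZNF579 (15.5). Thus 10 of the 13 clusters held at least 1 promoter under 3 CPM beside 1 above 17.

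The low clusters were not low throughout but made of runs. In ZNF101 to ZNF98, the first 3 promoters in gene order (ZNF101, ZNF14 and ZNF56P) lay at 21.6 to 46.8 CPM. The next 11, from ZNF506 to ZNF85, all lay at 1.71 to 3.05 CPM, with 15 to 35 fragments in each WT library. Then 8 in a row, ZNF430, ZNF714, ZNF431, ZNF708, ZNF738, ZNF493, ZNF429 and ZNF100, lay at 15.7 to 29.6 CPM with 144 to 287 fragments. The last 6, from ZNF43 to ZNF98, returned to 1.08 to 2.77 CPM. The run of 11 was the longest under 5 CPM, and the run of 8 was 1 of 9 runs of at least 4 promoters at 15 CPM or more found in the clusters, the longest of those being 10 genes, ZNF136 to ZNF791. The order of genes was taken from GRCh38.p14.

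In the neighbouring cluster ZNF492 to ZNF254, ZNF724, ZNF91 and ZNF675 lay at 18.7 to 23.2 CPM and ZNF254 at 29.8, while ZNF99, ZNF723, ZNF728 and ZNF730 lay at 1.34 to 1.89 and ZNF681 at 3.14. The 150 bases before the start did not order these levels: identity to ZNF254 was 82.1% for ZNF91, 78.4% for ZNF730, 78% for ZNF724 and 76.3% for ZNF681. In ZNF492 the WT libraries differed widely, with 112 and 62 fragments. Reads that map equally well to several copies were discarded by the authors (mapping quality under 30), and the part of this in low values of these related genes was not tested.

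**Figure D4:**
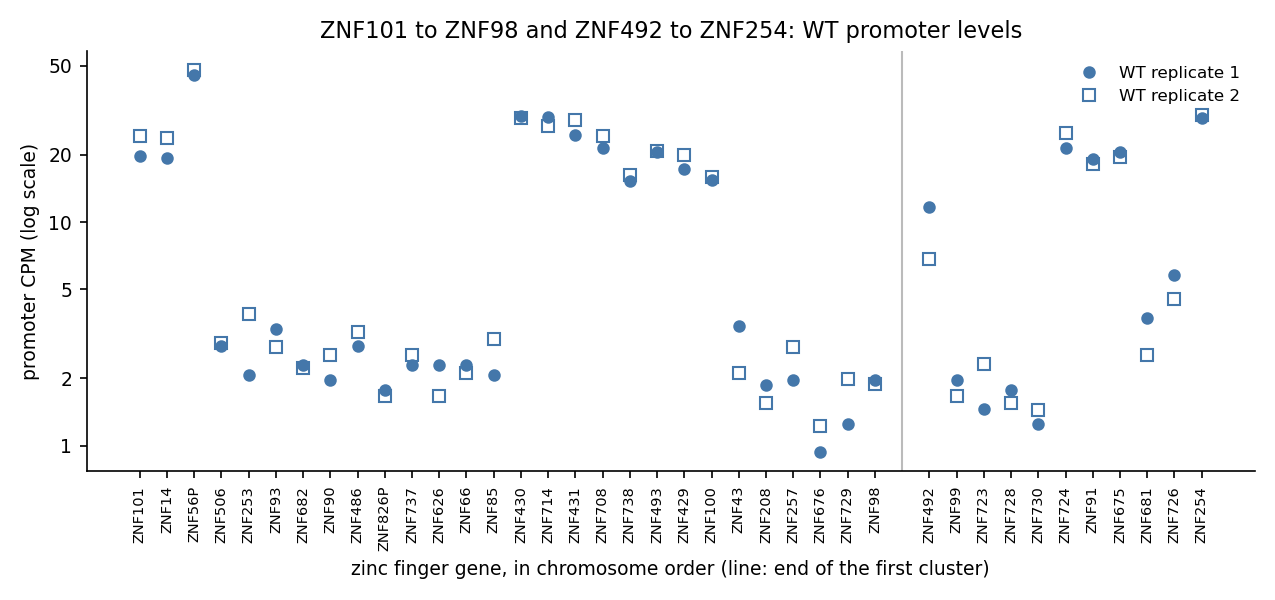
Normalised WT promoter counts (CPM, log axis) of the 39 genes of the clusters ZNF101 to ZNF98 and ZNF492 to ZNF254 in chromosome order, with 1 point per WT library. From ZNF506 to ZNF85 the 11 promoters have mean levels of 1.71 to 3.05 CPM, the next 8 of 15.7 to 29.6 CPM, and the following 6 of 1.08 to 2.77 CPM.

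The cluster promoters were also described by their letters, which the choice of peaks did not use. RefSeq windows of 300 bases (250 before the start and 50 after) were found for 1285 chromosome 19 rows, among them 200 of the 241 cluster genes. The letters CGGAAG, the core bound by ETS factors, occurred on either strand in 59.0% of cluster windows, 25.2% of other chromosome 19 windows and 23.6% of all 19554 windows. CCAAT, the box bound by NF-Y, occurred in 56.5%, 37.1% and 36.2%, and TATAAA in 2.5%, 7.56% and 10.0%. GGGCGG, a Sp1 box, did not set them apart, at 66.0% and 65.3% on the chromosome against 53.6% overall. No motif searched here contains another. ZNF254 and ZNF730 both carry CCAAT and CGGAAG in the printed bases and ZNF548 does too, whereas neither TSEN34 nor CD33 carries either.

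Open and closed zinc finger promoters were close in some of these letters and apart in others. CGGAAG occurred in 48.5% of the 68 cluster windows over 20 CPM and in 53.8% of the 52 under 5 CPM, and GGGCGG in 72.1% and 71.2%. GCGCA, part of the NRF1 motif, occurred in 60.3% and 48.1%, and TGACGT, part of the cyclic AMP response element, in 16.2% (11 windows) and 3.85% (2 windows). The median number of CpGs was 20 and 14, with quartiles of 14 to 26 and 10 to 25.5. Outside the clusters the contrast was wide: CGGAAG in 34.6% of 526 open windows and 10.7% of 149 closed ones, GGGCGG in 79.8% and 26.8%, and a median of 27 and 6 CpGs. A match is a description of letters and not of a bound factor.

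KO and WT differed at few promoters of the chromosome. By edgeR's quasi-likelihood test with Benjamini-Hochberg adjustment over all 27647 tested promoters, 84 of 1747 tested on chromosome 19 were called (4.81%, against 4.45% of all). The directions were unlike those of the genome: 21 were higher in KO (1.20% against 3.45%) and 63 lower (3.61% against 0.995%). Lower calls also outnumbered higher ones on chromosomes 17 (26 against 4), 16 (17 against 10), 20 (8 against 4) and 22 (7 against 3). On the rest of the 23 chromosomes higher calls were the more numerous. Of 240 tested zinc finger cluster promoters 12 were higher (5%, near the 3.45% of all) and 4 lower (1.67% against 0.995%). Of the 1507 others 9 were higher (0.597%) and 59 lower (3.92%). The median log2 fold change was −0.12 over the chromosome, the lowest of 23, with chromosome 17 next at −0.10, and 78.4% of promoters were below 0. Relative to the median of all promoters it was −0.11, and between −0.16 and −0.07 with any 1 library left out. Total-count scaling, which moved the median of all promoters from −0.02 to 0.12, put it at 0.014 and called 0 (110 at an unadjusted p under 0.05). The calls rest on the libraries used: they numbered 2 without KO replicate 2, 22 without WT replicate 2, 32 without KO replicate 1 and 123 without WT replicate 1. KO replicate 2 was the deepest library and had the lowest mitochondrial share, 20.6%, whose part in the calls was not tested. In bulk libraries fewer open cells and less openness per cell cannot be told apart. The study's own test of KO against WT counted reads in windows across the genome and summarised these by promoter. It reported far fewer genes, most of them more accessible in KO, than the 1229 promoters called here over the genome. The units tested differ, so the 2 sets of calls cannot be compared one to one. The part of the units, the test and the scaling in this gap was not tested.

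Zinc finger clusters and the rest of the chromosome had unlike pooled medians, 0.03 for 240 cluster promoters and −0.14 for 1507 others. The contrast varied with WT level. In classes from lowest to highest WT level, cluster medians were −0.28, 0.09, 0.12 and −0.03. Those of the other promoters were −0.33, −0.19, −0.09 and −0.09. Both sets were thus below 0 in the lowest class, and the pooled cluster median does not describe every level. The pooled cluster median was −0.022 without WT replicate 1 and 0.107 without WT replicate 2. Of the 12 higher calls, 8 fell in the last large cluster, ZNF264 to ZNF837, where 8 of 42 (19.05%, against 3.45% of all promoters) were higher and 0 lower (against 0.995%), a cluster singled out for its calls. They included ZNF548, ZNF304 and ZNF416. ZNF548 had 31.1 and 32.3 CPM in WT and 42.3 and 41.1 in KO, up by 0.39 ± 0.08 in log2 (SE, adjusted p = 0.000556 in edgeR). ZNF304, whose product is a KRAB zinc finger repressor, had 15.3 and 14.2 CPM in WT and 22.3 and 20.1 in KO (0.51 ± 0.11, edgeR adjusted p = 0.00159). ZNF416 had 14.4 and 17.9 in WT and 22.9 and 22.2 in KO (0.48 ± 0.11, edgeR adjusted p = 0.00212). In each of these genes both KO libraries were above both WT libraries, but the libraries of the groups were likewise apart, in either direction, at 49.7% of the 1747 tested promoters of the chromosome. Without KO replicate 2, 9 of the 10 named genes were no longer called. ZNF304 was lost without WT replicate 2 (adjusted p = 0.0637 in edgeR) and ZNF416 also without WT replicate 1 (adjusted p = 0.111 in edgeR). ZNF56P and LINC00663 had nearly equal counts in each library. ZNF56P rose from 45.7 and 48.0 CPM to 58.9 and 58.2 (0.32 ± 0.07, edgeR adjusted p = 0.00151).

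Lower calls spread over the chromosome at all levels. CARM1, an arginine methyltransferase, had 40.3 and 52.6 CPM in WT and 35.8 and 34.9 in KO (−0.39 ± 0.08, edgeR adjusted p = 0.000244), so the WT libraries differed from each other by more than the nearer of them differed from KO. FBXL12, a ubiquitin ligase subunit, had 41.4 and 53.9 in WT and 36.3 and 37.8 in KO (−0.35 ± 0.08, edgeR adjusted p = 0.00102). Without WT replicate 2, CARM1 had an adjusted p of 0.337 and FBXL12 of 0.451 by edgeR. The AP-1 gene JUND and MIR3188 beside it fell together, JUND from 66.6 and 72.4 CPM to 55.2 and 57.1 (−0.30 ± 0.07, edgeR adjusted p = 0.00159). CD33, a myeloid surface receptor, had 55 and 43 fragments in WT and 30 and 36 in KO, or 5.71 and 4.76 CPM against 2.75 and 2.11 (−1.15 ± 0.24, edgeR adjusted p = 0.000748), a change at a promoter that was near the level of closed genes throughout.

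**Figure D5:**
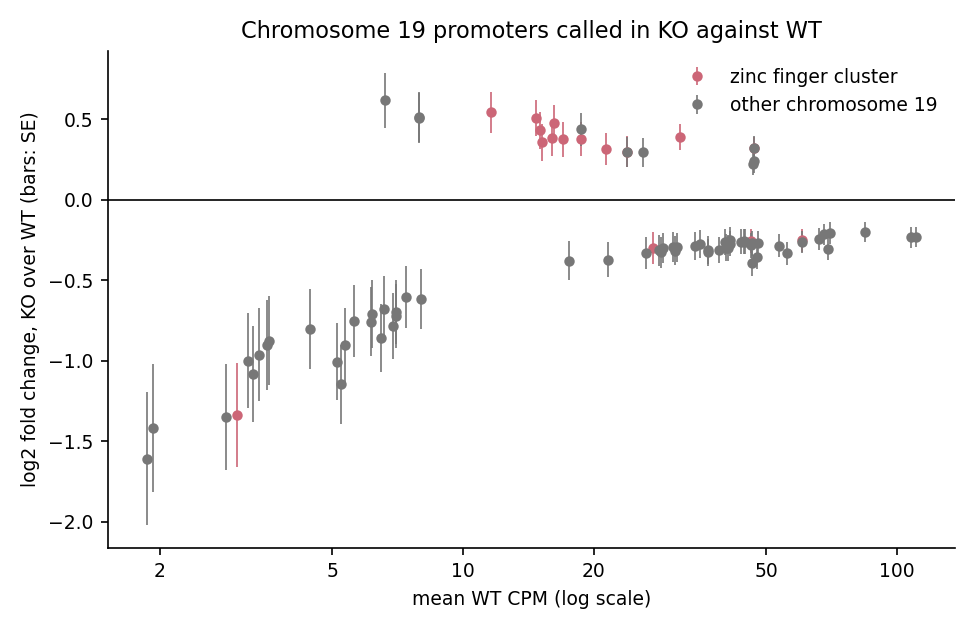
Log2 fold change of KO over WT (points, bars are SE) against mean WT CPM (log axis) for the 84 chromosome 19 promoters called by edgeR's quasi-likelihood test. Of the 21 points above 0, 12 belong to zinc finger clusters, and of the 63 below 0, 4 do, and the counts hold for these 4 libraries together and not when KO replicate 2 is left out.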

How the data were processed

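The authors aligned trimmed paired-end reads with bowtie2 to CHM13, discarded pairs of mapping quality under 30 and duplicates (Picard), and ran MACS2 on read pairs of both WT libraries together. The deposited peak list gives fold enrichment, a ratio, and −log10 q, both used as the authors gave them, and a score that the authors' caller derived from q, used only to check the file. Peak width, 1 Mb bins (by peak midpoint), intervals between peaks and ends of 2 Mb were computed from positions, counted from 1. The mitochondrial peaks were left out of comparisons with other chromosomes. The deposited promoter counts are raw fragments per gene, which the study's processing notes tie to featureCounts (Subread 2.0.6). The window of the study's promoter analysis is 2 kb, and it is not stated that the table used the same. Counts were scaled by TMM, filtered with filterByExpr and tested in edgeR 4.0.16 by its quasi-likelihood method (legacy fit, R 4.3.3, no covariates, all 4 libraries, two-sided, Benjamini-Hochberg threshold 0.05). DESeq2 1.42.0 was an alternative. On simulated counts with known changes the fit was checked before use. RefSeq tables on GRCh38.p14 matched 28763 of 28775 rows and gave symbols, chromosome, gene order and promoter letters, the first window listed per gene being used. None of its coordinates were mixed with those of the peaks.

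WT libraries held 10072386 and 9435801 promoter fragments and KO libraries 11240430 and 15152636. Counts of replicates differed by more than sampling noise (chi-square per degree of freedom 1.32 for WT and 1.20 for KO). The labels do not say that the libraries of a group came from separate cultures, and the study calls them independent, so p-values measure the spread between these libraries. Intervals are Wilson for shares and order-statistic for medians, at 95%, and cover counting or the spread over peaks only.

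Genes were named by rule: the 10 strongest and 5 widest peaks, the 5 fullest and emptiest bins, the 5 longest intervals, the 10 highest and 5 lowest tested promoters, the extremes of each cluster and family, and the 5 calls of smallest p each way. Some genes under these rules and marker lists are not reported here. The stretch before the desert, its 2 clusters and the bins of high median were singled out after their values were seen. Members and lists were chosen with earlier results of these data known. KO peaks and gene positions on CHM13 were not analysed here.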

Additional observations from a re-analysis of the deposited data

How the results depend on the processing

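Among peaks, those with a −log10 q of at least 5 had a median width of 745 bp and a median fold enrichment of 6.63, and those of at least 10 had 830.5 bp and 7.20. Peak count, density and the ratio of end to interior density stayed within 1.5 times or within their intervals under every alternative run, as did the fullest bin. The ratio of zinc finger cluster to other medians was 0.870 for clusters of at least 10 genes, 0.980 for every zinc finger gene, 0.981 with no filter and, in settings chosen after seeing the data, 0.913 in the row order of the deposited table and 0.725 for protein-coding genes. It lay between 0.917 and 0.918 with either WT library left out. The chromosome's WT share was 3.54% of a total that includes mitochondrial rows, and between 5.20% and 5.67% with either library left out.

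Against 84 calls, there were 80 with DESeq2 size factors, 77 with loess offsets (51 of them among the 84), 65 with the edgeR 4 fit (64 among the 84) and 87 at a mean count of at least 50 (59 among the 84), but 0 with total-count scaling in edgeR (110 at an unadjusted p under 0.05) and 0 by the DESeq2 Wald test (78 unadjusted). There were 149 at an adjusted p under 0.1 and 19 under 0.01, and between 2 and 123 with 1 library left out. Replicate numbers did not pair the libraries (correlation of deviations 0.02 over 19833 promoters), and with the replicate number as a block 62 were called. The chromosome's median log2 change was 0.014 with total-count scaling, and that of the clusters, with 1 library left out, ran from −0.022 (WT replicate 1) to 0.107 (WT replicate 2). The cause was not tested. Among the 10 promoters named for their calls, no change reversed under any setting in which they were fitted. Changes of promoters named only for their level were not checked in this way. Depth limits closed promoters most: 15 to 35 fragments per WT library do not separate one closed gene from another.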
